A study of Drosophila melanogaster with 12 samples.

Results

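The genes described here encode the proteins of the cytosolic ribosome. They were taken as every row of the table whose symbol starts with RpL or RpS, in that case, followed by a digit or by P and a digit, which leaves out the mRpL and mRpS genes of the mitochondrial ribosome. There were 84 such genes among the 9500 listed, 51 of the large subunit (RpL) and 33 of the small subunit (RpS). The rule uses symbols alone, and it takes in RpL7-like, RpL24-like and RpLP0-like, whose relatives in yeast are assembly factors of the large subunit and not parts of the finished ribosome.

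The ribosome is made of a small subunit, which reads the messenger RNA, and a large subunit, which joins the amino acids, and each holds a core of ribosomal RNA with many small basic proteins around it. Nearly every protein is present in a single copy per ribosome, so the genes are usually transcribed at high and similar levels in growing tissue. In flies, the larval fat body makes large amounts of secreted protein, and signalling through insulin and the kinase TOR is known to set ribosome production there.

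Fat bodies were taken for RNA-seq from female larvae at the wandering stage, reared from a cross of w1118 males with UAS-Dcr2; r4-GAL4 females. All 4 diet groups shared this genotype, in which the r4 driver expresses Dicer-2 in the fat body, and the growth notes of the samples also name RNA interference of InR although the cross they give holds no such transgene. Larvae were fed fructose at 0.3 M (CFD) or 1.7 M (HFD), or glucose at 0.3 M (CGD) or 1.7 M (HGD), with 3 libraries per diet and 12 in all. Replicates were described by the study as biological, and how many larvae each library pooled was not given in the sources used here.

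Values are read counts brought to a shared library size within each sugar, and the glucose values were multiplied by 0.874 so that the median gene had the same mean on both sugars. Reads in listed genes ran from 3484916 (HFD replicate 2) to 11134936 (HFD replicate 1) per library, and the lowest read count of any of the 84 genes in a library was 29. Fat body transcripts such as Lsp2 and Fbp1 were abundant in every library, and none of the 8 listed fat body markers was below 193.3. Of these 8, 3 rose and 1 fell over both sugars, with log2 fold changes from -1.89 to 1.375. Markers of other tissues moved with diet as well. The summed value of 14 muscle genes was 15932 to 28003 on CFD and 32022 to 41800 on HFD. On CGD it was 9072 to 16443 and on HGD 27609 to 39704, and 12 of the 14 genes rose over both sugars. The summed value of 8 midgut genes ran from 3184 to 11006 on CFD and 580.5 to 3796 on HFD, and from 3496 to 8282 on CGD and 1060 to 2415 on HGD. Of 7 hemocyte markers 5 fell and 1, Pxn, rose, and of 7 salivary gland markers 1 rose. No listed marker was at 0 in any library, but the whole table held only 1 value of 0 and no gene with a mean below 1. The lack of zeros therefore does not show that each tissue was present. The part of these markers in the values below was not tested, and in pooled tissue fewer cells of a type and less RNA per cell cannot be told apart.

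Ribosomal protein transcripts made up 7.97% ± 0.402 (SD, n = 3) of the normalized signal on CFD and 7.78% ± 1.48 on HFD, and 7.70% ± 0.991 on CGD and 8.60% ± 1.42 on HGD. The 4 diets overlapped in this share. Within the 84 genes, 79 had a mean value above 1000. Per kilobase of exon, a scale on which genes of different length can be compared, the median over the genes was 7203, with 6849 for the large and 7520 for the small subunit, and the middle 50% lay between 4883 and 9989. The highest level per kilobase was that of RpL41 (38840), the gene of a peptide of 25 amino acids, followed by RpLP2 (35260), an acidic protein of the stalk that recruits elongation factors, and by RpL23 (19380). The lowest levels were those of RpLP0-like (66.4), RpL7-like (89.4) and RpS15Ab (137), and 5 genes in all were below 1000. RpL7-like shares 1771 of its 1793 exon bases with CG34164 on the same strand, so its value cannot be told apart from that gene. Exon length here joins the exons of all annotated transcripts of a gene, so ranks depend on the length used. Per kilobase of coding sequence RpL41 also ranked first. RpL23 was then at rank 10 in place of 3, RpS29 at 2 in place of 8 and RpL5 at 29 in place of 73. The rank correlation between both scales was 0.76.

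**Figure D1:**
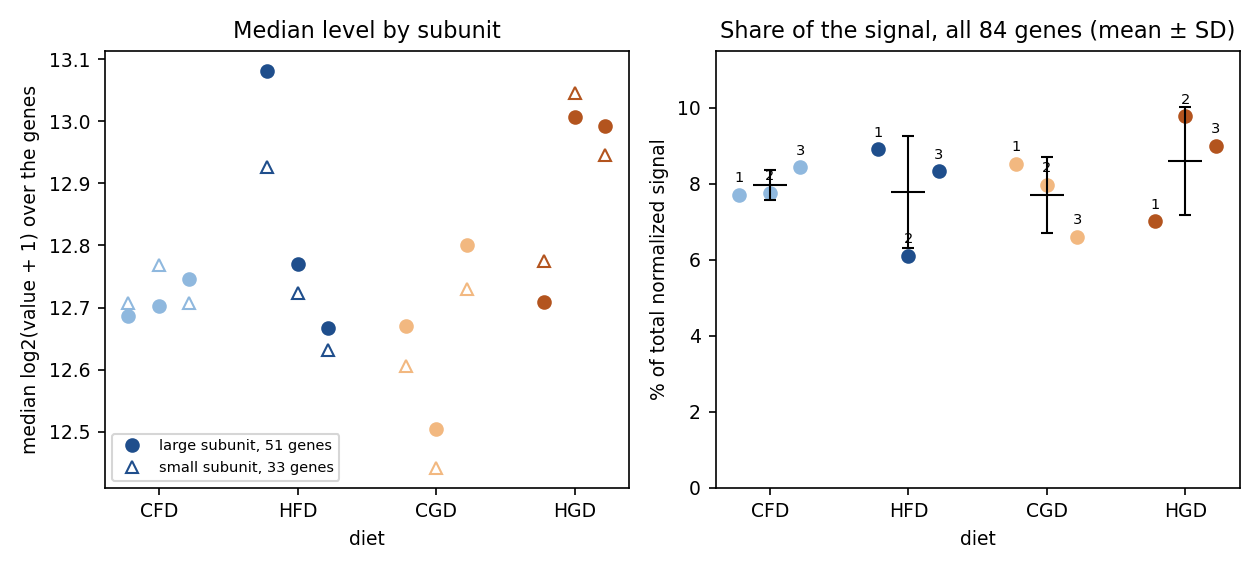
Left, median log2(value + 1) over the 51 large subunit genes (filled circles) and the 33 small subunit genes (open triangles) in each of the 12 libraries, by diet. Right, percent of the total normalized signal held by all 84 genes in each library, with replicate numbers and mean ± SD (n = 3). The medians of HFD replicate 1 and of HGD replicates 2 and 3 sit above those of all control libraries in both subunits, while the shares of the 4 diets overlap, from 6.11% in HFD replicate 2 to 9.78% in HGD replicate 2.

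The first comparison asked how a high concentration of each sugar changed these transcripts against the control concentration of the same sugar. On fructose, 5 genes rose, RpL41 and RpS21 fell, and 77 did not pass the threshold. The 5 that rose were RpS3A, RpL5, RpL23A, RpL27A and RpL10Ab, by 1.51-fold to 1.83-fold. RpL23A shares 421 of its 1321 exon bases with Uhg7 on the same strand, so its value may include reads of that gene. Its fructose call was lost without CFD replicate 2 or HFD replicate 2 (adjusted p of 0.0694 and 0.083, limma). Its glucose call was lost without CGD replicate 2 or HGD replicate 2 (0.07145 and 0.0643). Tested with limma across all 9500 genes, 5.95% of the 84 were called higher and 2.38% lower at an adjusted p of 0.05, beside 9.4% and 9.93% of all genes (19.3% in either direction). The median log2 fold change was 0.13 over the 84 genes and -0.02 over all genes. It was 0.11 in the large subunit (4 higher and 1 lower of 51) and 0.20 in the small subunit (1 higher and 1 lower of 33). The libraries of the diets did not overlap for 30 genes that were higher on HFD and 2 that were lower, beside 19.0% and 19.1% of all genes. The count of 7 called genes was 3, 2 and 3 without CFD replicate 1, 2 or 3, and 4 without HFD replicate 2 or without HFD replicate 3.

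On glucose, 21 genes rose and 2, RpL41 and RpS15Ab, fell. This was 25% higher and 2.38% lower, beside 16.7% and 12.9% of all genes (29.6% in either direction), with a median log2 fold change of 0.34 over the 84 genes and 0.01 over all genes. In the large subunit the median was 0.28, with 10 genes higher and 1 lower of 51. In the small subunit it was 0.39, with 11 higher and 1 lower of 33, and 31 of the 33 had a positive value. Diets did not overlap for 39 genes higher and 3 lower on HGD, beside 24.0% and 20.8% of all genes. The 23 calls became 12 without CGD replicate 1, 8 without CGD replicate 2, 11 without HGD replicate 2 and 14 without HGD replicate 3.

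Over both sugars together, with high sugar set against control in a single contrast, 31 genes rose and 2 fell. These were 36.9% and 2.38% of the 84 genes, beside 21.2% and 20.7% of all genes (41.9% in either direction). Small subunit genes rose in 17 of 33 cases (51.5%) and large subunit genes in 14 of 51 (27.5%), with medians of 0.31 and 0.15 on the log2 scale, and a difference between the subunits was not tested because genes are not replicates of a diet. Of the 33 genes called, 10 were called with neither sugar alone. Without CGD replicate 2 the calls were 17 (15 higher and 2 lower). For 26 genes both high diets were above the control diet of their own sugar without overlap, beside 13.9% of all genes, and for RpL41 alone both were below theirs, beside 11.8%. The direction of a gene had the same sign with both sugars in 65 of the 84, positive in 55 and negative in 10, and the remaining genes included 17 that were negative with fructose and positive with glucose.

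These rises depended on the scale on which libraries were compared. With each library scaled to the same total, the median of all genes moved to -0.21 (HFD against CFD) and -0.20 (HGD against CGD), and the calls became 0 higher and 3 lower with fructose, 0 higher and 2 lower with glucose, and 6 higher and 4 lower over both sugars. Relative to the median of all genes, the median of the 84 was then 0.14, 0.33 and 0.24 higher for the same comparisons. The share of all genes called on that scale is not given here. The counts therefore do not show whether the 84 genes lost more calls than others.

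**Figure D2:**
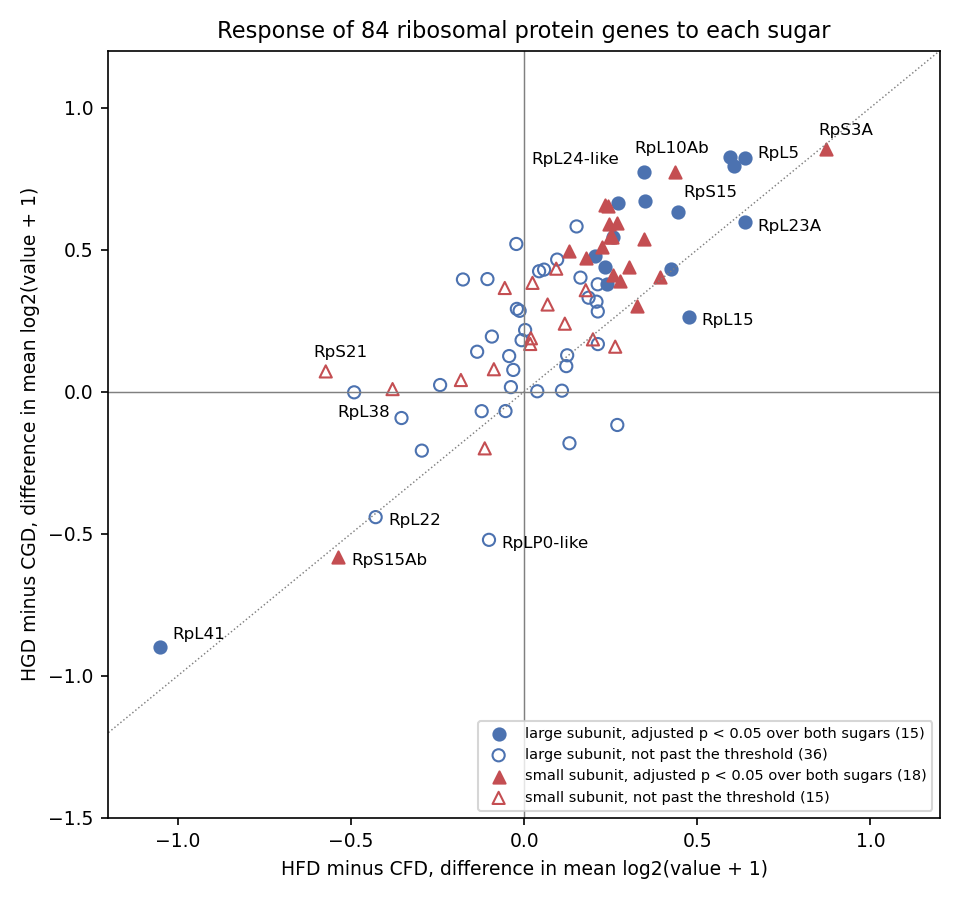
Difference in mean log2(value + 1) between HFD and CFD (horizontal) and between HGD and CGD (vertical) for each of the 84 genes, with circles for the large and triangles for the small subunit. Filled symbols passed an adjusted p of 0.05 (limma) for high against control over both sugars. RpL41 lies apart at the lower left (-1.05 and -0.90), RpS3A at the upper right (0.87 and 0.85), and 67 genes lie above the dotted line of equal response.

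RpL41 was the gene that stood out, with the lowest log2 fold change of the 84 for each sugar. It encodes the smallest protein of the ribosome, which sits between the subunits, and it lies on chromosome 2R (24903416 to 24903935, minus strand, BDGP6.54), where its exons overlap no other annotated gene. On fructose its value was 20975, 15495 and 14666 in the CFD libraries and 10426, 7135 and 7198 in the HFD libraries. On glucose it was 16079, 13829 and 17816 on CGD and 9320, 7486 and 8738 on HGD. Every high-sugar library was below every control library, with no overlap for either sugar. In log2 terms this was a fold change of -1.05 (SE 0.21, adjusted p = 0.00403, limma) on fructose, of -0.90 (SE 0.21, adjusted p = 0.00685) on glucose and of -0.98 (SE 0.15, adjusted p = 0.000208) over both sugars. Per kilobase of exon RpL41 was the first of the 84 genes on CFD (53270 ± 10710, SD, n = 3) and on CGD (49710 ± 6246), and the second behind RpLP2 on HFD (25790 ± 5882) and on HGD (26610 ± 2929). RpLP2 was at 34650 ± 6586 on HFD and 42310 ± 12060 on HGD, and on HFD the levels of both genes overlapped within 1 SD.

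The other short ribosomal proteins differed in direction. Among the 10 genes that encode at most 100 amino acids, RpS21 (83 amino acids) fell with fructose, by 0.57 on the log2 scale, as described further on. RpS29 (56 amino acids) rose with glucose, by 0.59 (SE 0.19, adjusted p = 0.0341, limma), and RpS27 (84 amino acids) rose over both sugars, by 0.31 (SE 0.11, adjusted p = 0.0324). The call of RpS29 was lost without CGD replicate 1 or 2 or HGD replicate 1 (adjusted p of 0.0897 to 0.12), and that of RpS27 without CFD replicate 2 or 3, HFD replicate 2 or 3, CGD replicate 1 or 2 or HGD replicate 1 (0.0503 to 0.0832). RpL39 (51 amino acids), which like RpL41 belongs to the smallest proteins of the large subunit, had log2 values of -0.04 (SE 0.23) for HFD minus CFD and 0.02 (SE 0.23) for HGD minus CGD. RpL38 (70 amino acids) was at -0.49 (SE 0.22, adjusted p = 0.128) with fructose and close to 0 with glucose. For HFD minus CFD and HGD minus CGD in turn, RpL37a (93 amino acids) had log2 values of -0.30 and -0.21 (SE 0.30 for each) and RpL37A (92 amino acids) of -0.12 and -0.07 (SE 0.19 for each), none past the threshold. Across the 84 genes, the rank correlation of the response over both sugars was 0.32 with coding length and 0.42 with the mean value, a description over genes that share the same libraries.

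RpS3A, a small subunit protein and the only member on chromosome 4 (65225 to 67207, minus strand, BDGP6.54), had the largest rise. Its value was 8552, 8735 and 7962 on CFD and 12655, 15019 and 19207 on HFD. On CGD it was 8836, 8431 and 8299, and on HGD 20563, 13696 and 12961. The control libraries lay close together and all high-sugar libraries were above them, with the highest values in HFD replicate 3 and HGD replicate 1. Its log2 fold change was 0.87 (SE 0.21, adjusted p = 0.0112, limma) with fructose and 0.85 (SE 0.21, adjusted p = 0.00892) with glucose.

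RpL5, which carries the 5S ribosomal RNA into the large subunit together with RpL11, rose with both sugars. It was at 10657, 11403 and 11237 on CFD and at 19376, 15183 and 17458 on HFD. On CGD it was at 10967, 9775 and 11359, and on HGD at 17648, 20293 and 18793. The diets did not overlap, and the log2 fold change was 0.64 (SE 0.17, adjusted p = 0.0203, limma) with fructose and 0.82 (SE 0.17, adjusted p = 0.00337) with glucose. The fructose call was lost without CFD replicate 1, 2 or 3 or HFD replicate 1 or 3, at adjusted p of 0.0529 to 0.0689. For RpL11, its partner, the log2 fold change was 0.06 (SE 0.21) on fructose and on glucose 0.43 (SE 0.21, adjusted p = 0.141).

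RpL10Ab, a protein of the flexible stalk by which spent transfer RNA leaves the ribosome, was at 6860, 7267 and 7642 on CFD and at 8623, 12795 and 11871 on HFD. Its values on CGD were 6676, 6357 and 7120, and on HGD 11506, 13667 and 10729. All high-sugar libraries were above the controls, with HFD replicate 1 nearest to them. The log2 fold change was 0.59 (SE 0.18, adjusted p = 0.0356, limma) with fructose and 0.83 (SE 0.18, adjusted p = 0.00454) with glucose. RpL27A, another large subunit protein, was at 9513 ± 243 (SD, n = 3) on CFD against 14567 ± 2149 on HFD, and at 9037 ± 548 on CGD against 15756 ± 2044 on HGD. The log2 fold changes were 0.60 (SE 0.18, adjusted p = 0.0289) and 0.80 (SE 0.18, adjusted p = 0.00484). With fructose both calls were lost without CFD replicate 1, 2 or 3 or HFD replicate 2 or 3, at adjusted p of 0.0706 to 0.143, and that of RpL10Ab also without CGD replicate 1 (0.052) or 2 (0.0507). RpS15, of the small subunit, rose with glucose, by 0.77 (SE 0.18, adjusted p = 0.0059), and was at 0.44 (SE 0.18, adjusted p = 0.102) with fructose. The difference between the responses of RpS15 to the sugars was not past the threshold in the interaction test described further on.

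**Figure D3:**
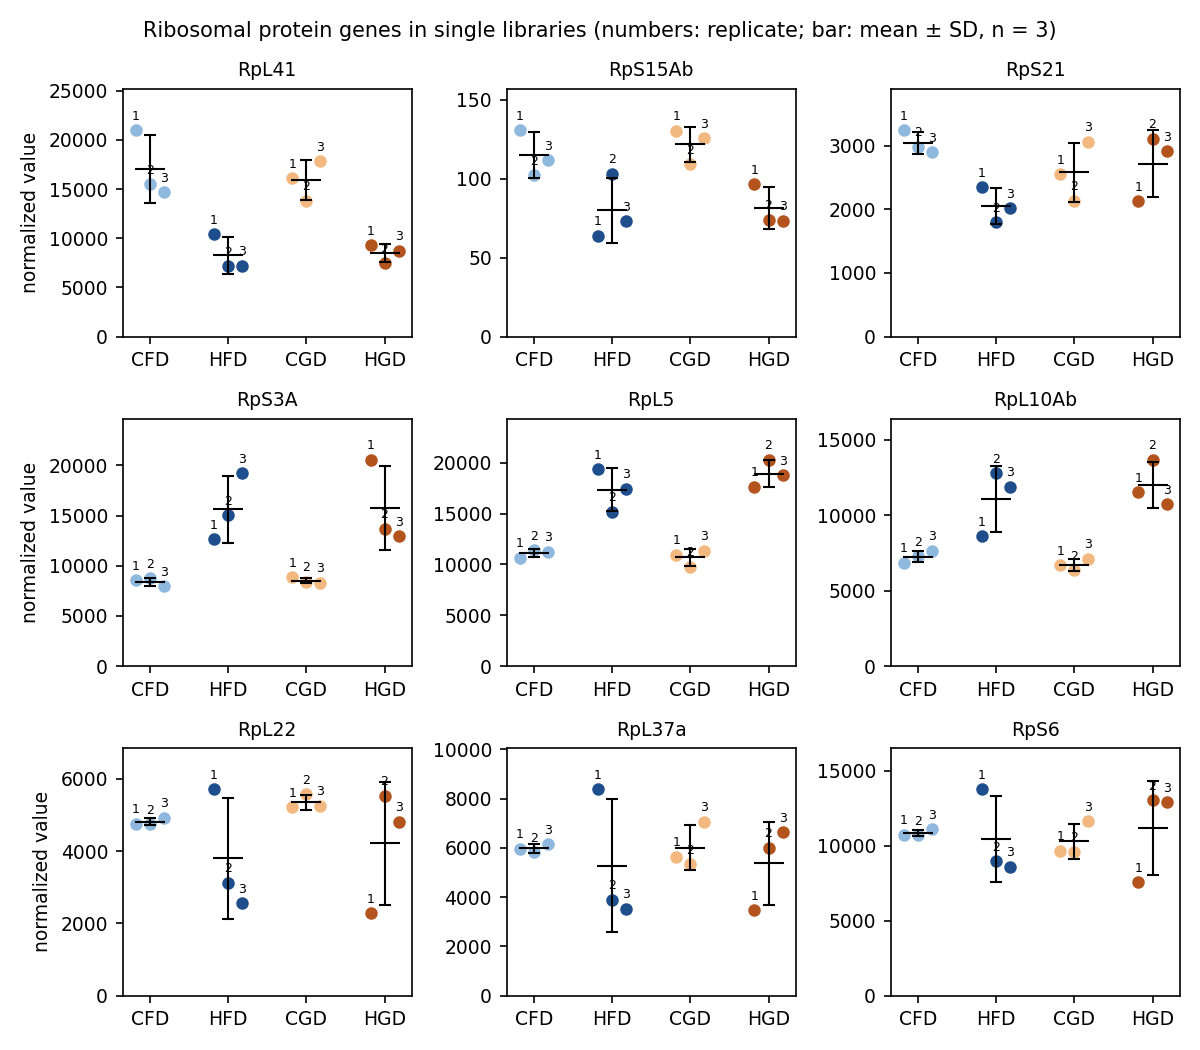
Normalized values of 9 ribosomal protein genes in each of the 12 libraries, on linear axes from 0, with replicate numbers and mean ± SD (n = 3 per diet). RpL41 is lower in all 6 high-sugar libraries, RpS3A, RpL5 and RpL10Ab are higher in all 6, and RpL22, RpL37a and RpS6 differ among the libraries of a high-sugar diet, with HFD replicates 2 and 3 and HGD replicate 1 below their controls.

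RpS15Ab fell from a low level. It is a second copy of the gene of RpS15A, which RpS15Aa also encodes, and reads may be split between such copies. Its value was 131, 102 and 112 on CFD and 63.9, 103 and 73.1 on HFD, so HFD replicate 2 lay among the controls. On CGD it was 130, 109 and 126 and on HGD 96.6, 74.0 and 73.5, without overlap. The log2 fold change over both sugars was -0.56 (SE 0.14, adjusted p = 0.00538, limma). With fructose it was -0.54 (SE 0.19, adjusted p = 0.0692) and with glucose -0.58 (SE 0.19, adjusted p = 0.0375), a call that was lost without any of the CGD libraries or HGD replicate 2 or 3 (adjusted p of 0.0564 to 0.115). RpS15Aa rose over both sugars, by 0.32 (SE 0.11, adjusted p = 0.0282), and this call was lost without CFD replicate 1 or 3, HFD replicate 1, CGD replicate 1 or 2 or HGD replicate 3 (adjusted p of 0.0522 to 0.077), with a replicate block (0.057) and with library totals (0.566). The share of RpS15Ab in the summed value of the pair was 1.76% ± 0.330 (SD, n = 3) on CFD and 1.1% ± 0.372 on HFD, and 1.95% ± 0.150 on CGD and 0.955% ± 0.177 on HGD.

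RpS21, known in flies as the tumour suppressor oho23B for its overgrown blood-forming organs when mutated, fell with fructose. Its value was 3241, 2981 and 2900 on CFD and 2349, 1796 and 2018 on HFD, and no libraries overlapped. On CGD it was 2548, 2133 and 3059 and on HGD 2127, 3110 and 2915, which overlapped fully. The log2 fold change was -0.57 (SE 0.18, adjusted p = 0.04, limma) with fructose and 0.07 (SE 0.18, adjusted p = 0.797) with glucose. The fructose call was lost without CFD replicate 1, 2 or 3, HFD replicate 2 or 3, CGD replicate 1 or HGD replicate 3, at adjusted p of 0.0509 to 0.15.

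Some other genes also have a close copy. RpS14a and RpS14b, neighbouring genes on the X chromosome that encode the same small subunit protein, both rose with glucose, by 0.49 (SE 0.16, adjusted p = 0.033, limma) and 0.66 (SE 0.21, adjusted p = 0.0306), and both calls were lost without CGD replicate 1 or 2 or HGD replicate 2 or 3 (adjusted p of 0.0679 to 0.129). RpS14b held 33.3% ± 0.754 (SD, n = 3) of the pair's value on CFD and 35.0% ± 3.03 on HFD, and 35.2% ± 0.895 on CGD and 37.9% ± 3.34 on HGD. RpL34a held 12.7% ± 0.615 of the RpL34 pair on CFD and 11.0% ± 0.852 on HFD, and 12.9% ± 0.373 on CGD and 11.7% ± 0.691 on HGD, and of the pair RpL34b rose over both sugars, by 0.31 (SE 0.10, adjusted p = 0.0287). The call of RpL34b was lost without CFD replicate 1 or 3, HFD replicate 2 or 3, CGD replicate 1 or 2 or HGD replicate 2 (adjusted p of 0.0524 to 0.0618) and with library totals (0.625). Of the genes with names ending in -like, RpL24-like rose with glucose, by 0.77 (SE 0.18, adjusted p = 0.00553), from 518 ± 87.5 to 895 ± 223. RpLP0-like (-0.10 and -0.52) and RpL7-like (0.27 and -0.12) did not pass the threshold with either sugar.

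The stalk of the large subunit is built from RpLP0 with the acidic proteins RpLP1 and RpLP2. RpLP0 rose with glucose, from 10009 ± 826 (SD, n = 3) to 16119 ± 3725, which was 0.66 on the log2 scale (SE 0.19, adjusted p = 0.0182, limma), which did not hold without CGD replicate 1 or 2 or HGD replicate 2 (adjusted p of 0.0582 to 0.073). RpLP1 and RpLP2 were at 0.40 (SE 0.19, adjusted p = 0.128) and 0.42 (SE 0.23, adjusted p = 0.185) with glucose, and with fructose the log2 fold changes of the stalk genes were 0.27, 0.16 and 0.04. RpL40 and RpS27A are made as fusions with ubiquitin. RpL40 was at 0.04 with fructose and 0.00 with glucose on the log2 scale, and RpS27A at -0.11 and -0.20, none of them past the threshold. RpS6, the substrate of the kinase S6K, had log2 fold changes of -0.09 (SE 0.24) on fructose and of 0.08 (SE 0.24) on glucose, with a wide spread between the libraries of each high diet.

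That spread was a property of many of the genes. On CFD the median SD of log2 values over the 84 genes was 0.06, against 0.22 over all genes, and on CGD it was 0.14 against 0.22. It was 0.22 against 0.24 on HFD and 0.23 against 0.25 on HGD. In 76 of the 84 genes (90.5%) the SD was larger on HFD than on CFD, beside 53.8% of all genes, and in 60 (71.4%) it was larger on HGD than on CGD, beside 55.1%. RpL37a had the largest SD on HFD (0.68) and RpL22 on HGD (0.68).

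The libraries of each high diet thus differed among themselves. RpL22, whose protein in flies carries an extension that resembles histone H1, was at 5712, 3129 and 2554 in HFD replicates 1, 2 and 3 and at 2290, 5536 and 4816 in HGD replicates 1, 2 and 3. The controls lay between 4753 and 5578. RpL22 was low in HFD replicates 2 and 3 and in HGD replicate 1 and near the controls in the others. RpL37a, a zinc-binding protein of the large subunit, was at 8380, 3893 and 3539 on HFD and 3466, 6008 and 6638 on HGD, with controls from 5347 to 7066. RpS6 was at 13764, 8968 and 8606 on HFD and 7578, 13033 and 12908 on HGD, with controls from 9605 to 11648. The same libraries were low for these 3 genes. On the same strand, RpL22 shares 377 of its 1100 exon bases with lncRNA:CR42491. RpS6 shares 202 of its 1195 with snoRNA:Or-aca2 and CR33222. The values of RpL22 and RpS6 may thus include reads of those genes.

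Measured as the deviation of each library from the control mean of its sugar, 74 genes were above 0 in HFD replicate 1, 44 in HFD replicate 2, 49 in HFD replicate 3, 53 in HGD replicate 1, 70 in HGD replicate 2 and 74 in HGD replicate 3. The median deviations were 0.31, 0.05, 0.07, 0.15, 0.47 and 0.37 in the same order. Across the 84 genes the deviations of HFD replicate 3 and HGD replicate 1, which share no control, had a Pearson r of 0.93, and those of HGD replicates 2 and 3, which share controls, 0.91. HFD replicate 1 and HGD replicate 1 were least alike (0.19). Over all 9500 genes these correlations were 0.79, 0.86 and 0.72. The genes within a library share its depth and composition, so no test is attached to these values. Control libraries differed less, yet in CGD replicate 2 only 2 genes were above the mean of its own diet and in CGD replicate 3 it was 76.

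The share of the listed ribosomal RNA genes and of the abundant transcript CR41583 also differed among the high-sugar libraries. The listed genes were mt:lrRNA and mt:srRNA, of the mitochondrial ribosome, and the 18S entry CR41548, so their share is not that of cytosolic ribosomal RNA. Together they held 1.21%, 11.4% and 5.11% of the signal in HFD replicates 1, 2 and 3. In HGD replicates 1, 2 and 3 they held 3.84%, 2.51% and 1.80%. CR41583 held 4.91%, 9.39% and 8.13% in the HFD libraries and 12.9%, 5.44% and 5.17% in the HGD libraries. Of the 6 high-sugar libraries, both were lowest in HFD replicate 1 and HGD replicates 2 and 3. In the control libraries the ribosomal RNA genes ran from 2.81% to 5.78% and CR41583 from 5.78% to 8.66%. HFD replicate 3 lay within both control ranges, and HGD replicate 1 within that of the ribosomal RNA genes. Their part in the values of the ribosomal protein genes was not tested.

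**Figure D4:**
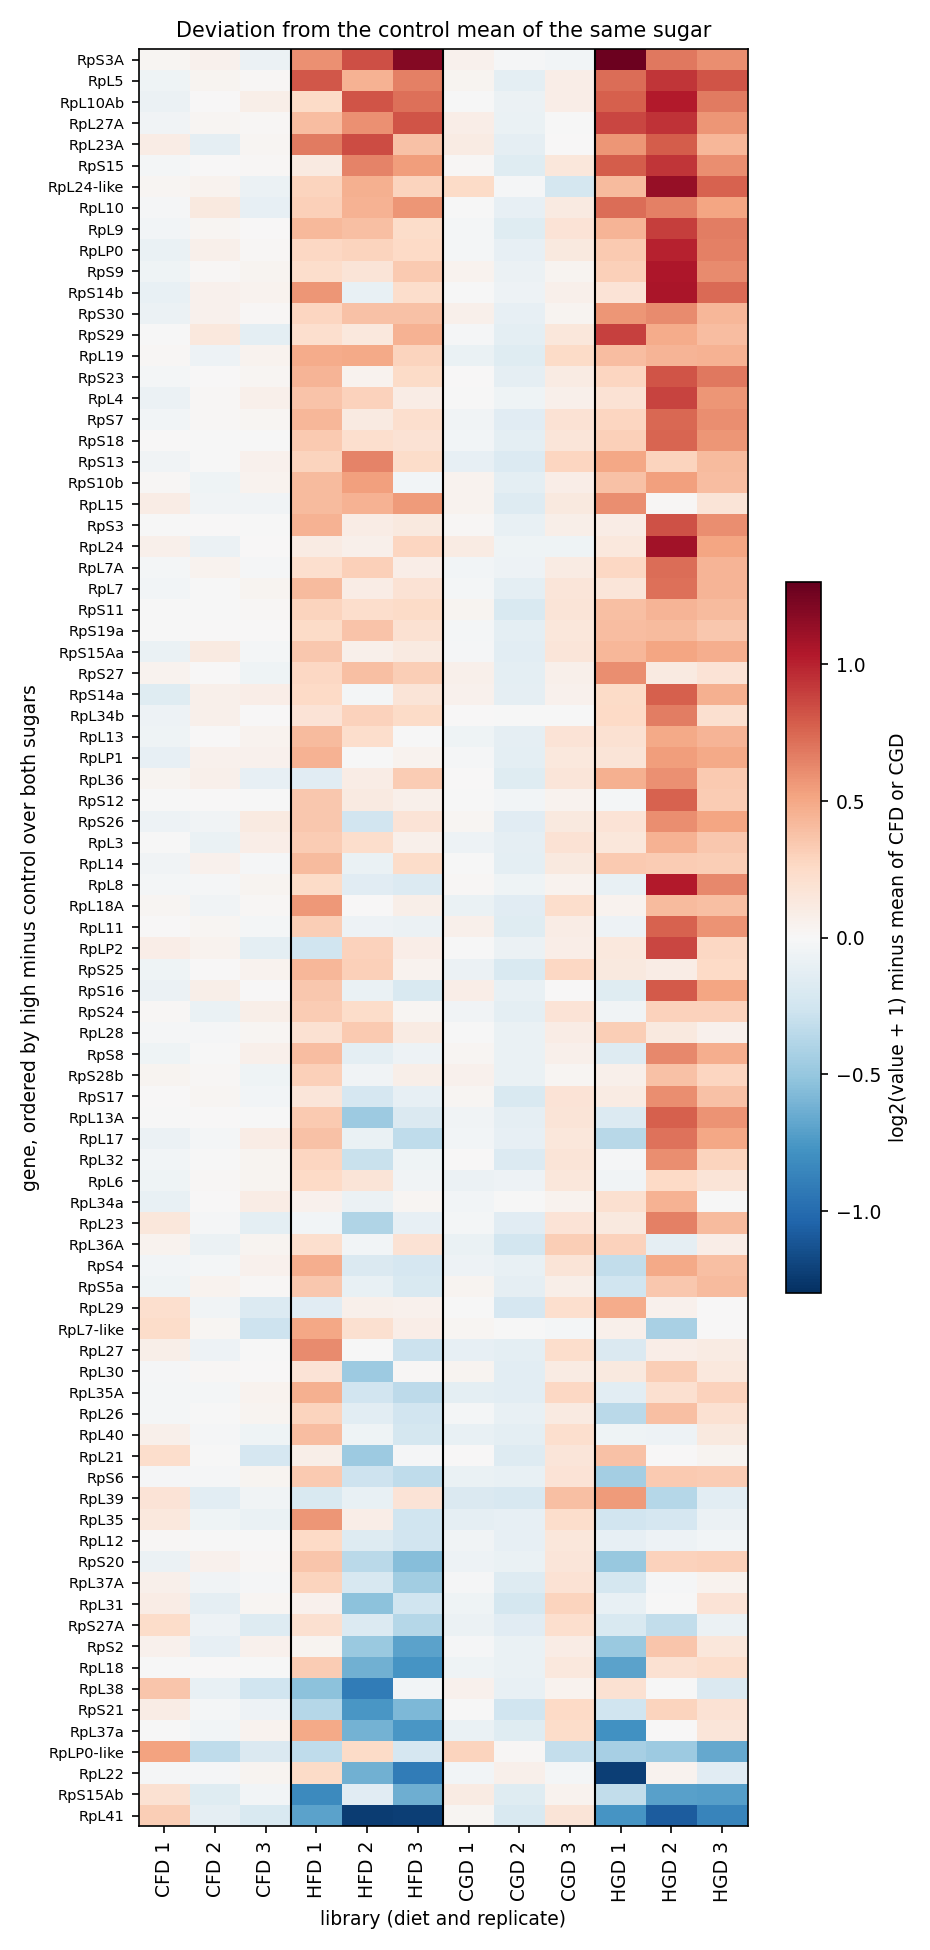
Deviation of log2(value + 1) from the control mean of the same sugar (CFD or CGD) for each of the 84 genes (rows, ordered from the highest to the lowest response over both sugars) in each of the 12 libraries (columns), with red above and blue below the control mean. The top rows are red in all 6 high-sugar libraries and RpL41 at the bottom is blue in all 6, while many rows between are blue in HFD replicates 2 and 3 and HGD replicate 1 and red in HFD replicate 1 and HGD replicates 2 and 3.

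The second comparison set the sugars against each other at the same concentration. At 0.3 M none of the 84 genes was called between CGD and CFD (0 by limma, beside 0.0% of all genes, 0 at an unadjusted p under 0.05 beside 4.28% of all genes, and 0 with limma-voom on recovered reads). Their median log2 difference was -0.08 and the middle 50% lay between -0.11 and -0.04. It was positive in 13.1% of them, beside 43.6% of all genes. The libraries of the diets did not overlap for 1 gene higher and 4 lower on CGD, beside 307 and 520 of the 9500 genes. The fit pooled the spread of each gene over all 4 diets. The median SD of the 84 genes was 0.06 on CFD and 0.14 on CGD, against 0.22 on HFD and 0.23 on HGD. Libraries outside the comparison thus entered its error, and the count of 0 beside 4.28% does not show unusually close agreement. At 1.7 M no gene was called between HGD and HFD either (0.0% of all genes, 0 with limma-voom), and 2 were past an unadjusted p of 0.05 beside 5.09% of all genes, RpL38 (0.52, SE 0.22) and RpS21 (0.39, SE 0.18). The median difference was 0.12, and the 95% interval of a typical gene, not adjusted for the number of genes, reached 0.40 to either side. Differences of that size between the sugars were not detectable here. Larger ones could be missed as well, since RpL38 at 0.52 had an adjusted p of 0.89 (limma). The sign of a difference near 0 also rests on the factor that joins the sugars, since without it the medians were 0.12 and 0.32. With edgeR, the study itself reported a small number of genes that differed between the sugars, none of them a ribosomal protein gene. The 0.0% of all genes in this limma fit therefore does not mean that no transcript differed.

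Whether the response to glucose differed from that to fructose was tested as an interaction. No gene was called (0.0% of all genes, 0 with limma-voom), and RpS21 alone passed an unadjusted p of 0.05, beside 4.26% of all genes, with a difference of 0.64 (SE 0.26, adjusted p = 0.937, limma). The log2 fold change was larger with glucose than with fructose in 67 of the 84 genes (79.8%), beside 58.1% of all genes, a count over genes measured in the same libraries. The larger number of calls with glucose is therefore not a tested difference between the sugars.

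Genes that work with the ribosome were counted for context over both sugars, beside 21.2% of all genes higher and 20.7% lower. Of 71 mitochondrial ribosomal protein genes, 4 rose and 16 fell, with a median log2 fold change of -0.15. Of 9 elongation and termination factors, 7 rose, among them Ef2b (0.85, SE 0.15, adjusted p = 0.000457, limma), which moves the ribosome along the messenger RNA, and Ef1beta (0.68, SE 0.13, adjusted p = 0.000917), while Ef1alpha100E fell (-0.90, SE 0.15, adjusted p = 0.000468). Of 17 genes of TOR signalling and of the control of ribosomal protein genes, 8 rose and 0 fell. They included S6k (1.07, SE 0.12, adjusted p = 1.348e-05), the kinase of RpS6, and Thor (0.62, SE 0.15, adjusted p = 0.00524), which holds back translation when TOR is low, as well as gig (0.58, SE 0.11, adjusted p = 0.000719), a part of the complex that inhibits TOR. Of 14 ribosome assembly factors, 2 rose and 5 fell, and those that fell included nop5, Nop56 and Fib, proteins of the particles that methylate ribosomal RNA, by 0.61, 0.52 and 0.66 on the log2 scale, and Nop60B (-0.60), the enzyme that makes pseudouridine in it.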

How the data were processed

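RNA-seq of larval fat bodies was analysed from a single deposited table of 9500 genes in 12 libraries. According to the study, the authors counted reads per gene after alignment and tested them with edgeR. Software named in the submitters' processing notes is Bowtie 0.12.7, TopHat 1.3.2 and Cufflinks 1.1.0, with the build dm3, and it is unsettled whether these made the deposited values. Ribosomal RNA was depleted before sequencing. The use of strand in counting is not stated in the sources read, and the exons of 31 of the 84 genes overlap another gene. The authors deposited a normalized signal that is not whole. Whole reads brought to a shared library size within each sugar return 100% of the values within 0.0001, relative or absolute, and for the largest values this tolerance is wider than the step between reads. The recovered reads served for depth and for limma-voom.

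Deposited signal was used on the log2(value + 1) scale, with glucose values multiplied by 0.874, the median ratio between sugars. A fold change on this scale understates that of low genes. With R 4.3.3, limma 3.58.1 (eBayes, trend) was fitted over all genes, 4 diets and 12 libraries, with Benjamini-Hochberg adjustment over 9500 genes and a threshold of 0.05. The fit was tested on simulated data. P-values measure the spread between libraries. Alternatives were pseudocounts of 0.1 and 5, a minimum mean of 10, median-of-ratios factors, library totals, no factor between sugars, only the diets compared, a replicate block, each library left out and limma-voom.

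Members and lists were chosen with earlier results of these data known. The genes named were RpL41, the 4 highest and 4 lowest responses over both sugars, the extremes called with a single sugar, the 3 highest and 3 lowest levels per kilobase, members with lettered or -like copies, stalk proteins, RpS6 and the ubiquitin fusions. RpL11, RpL15, RpL23A, RpL38, RpL39, RpS27 and RpS29 were added after their values were seen. Lengths and positions are from BDGP6.54, which is not the authors' build. All 84 genes were found there, 5 of them by symbol. Python 3.11.15, numpy 2.4.6, pandas 2.3.3, scipy 1.17.1 and matplotlib 3.10.9 were used.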

Additional observations from a re-analysis of the deposited data

How the results depend on the processing

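The rises depended most on the scaling of libraries. With library totals, 3 genes were called with fructose, 2 with glucose and 10 over both sugars in place of 7, 23 and 33, and the medians over the 84 genes moved to -0.07, 0.13 and 0.03. A replicate block gave 4 calls with fructose and 13 with glucose. Same-numbered libraries were not paired in the main fit. The correlations of their deviations were 0.053, 0.01 and 0.206 for HFD with CFD, and -0.055, 0.019 and -0.041 for HGD with CGD. Between the sugars they were -0.11, -0.043 and -0.208 for CGD with CFD, and -0.362, -0.093 and -0.084 for HGD with HFD. Deviations within 3 libraries cannot settle whether same-numbered libraries were handled together. A supplementary listing of the study also numbers the high-fructose libraries otherwise than the sample labels do. The replicate numbers of HFD thus need not match those of the other diets. Fitting only the diets compared gave 12 calls with glucose. Leaving out single libraries gave 2 to 8 calls with fructose, 8 to 32 with glucose and 17 to 37 over both sugars. For the fits with a library left out, the share of all genes called is not given here either. Without the factor between sugars the medians were 0.12 (CGD against CFD) and 0.32 (HGD against HFD). RpL41 was called in all 21 alternatives for each sugar, with a log2 fold change of -1.25 to -0.89 with fructose and -1.12 to -0.81 with glucose, and in all 20 over both sugars (-1.18 to -0.90). RpS3A kept its calls in all but library totals (adjusted p of 0.079 and 0.078). No value changed sign past the threshold. The cause of these changes was not tested, and for library totals the shift of the median of all genes to about -0.21 is part of the alternative. HFD replicate 2, with a median of 32 reads per gene, limits low genes such as RpS15Ab. The share of the signal overlapped between the diets also without the listed ribosomal RNA genes, mitochondrial genes and Dcr-2 in the total. It did so too without CR41583, a total chosen after seeing the data.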

Other observations

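Small nucleolar RNAs, the guides for the modification of ribosomal RNA, are annotated within 28 of the 84 genes. The 5 genes with the highest response over both sugars (RpS3A, RpL5, RpL10Ab, RpL27A and RpL23A) were all among them, which was noticed after their values were seen. Exons of RpL23A also overlap Uhg7 and a small nucleolar RNA on the same strand. Of the 28 genes, 12 rose (42.9%) and 0 fell, with a median log2 fold change of 0.26, and of the other 56 genes 19 rose (33.9%) and 2 fell, with a median of 0.20. RpL22, which also contains 2 of these RNAs, was at -0.43, so the annotation did not go with a rise in every gene. No test is attached, because the pattern was chosen from these values.

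The small subunit protein RpSA is listed under the symbol sta and so is not among the 84 genes. Its value was 13770 ± 268 (SD, n = 3) on CFD and 14520 ± 3187 on HFD, and 12410 ± 531 on CGD and 17950 ± 6742 on HGD. The log2 fold change was 0.05 (SE 0.27, adjusted p = 0.911, limma) with fructose and 0.45 (SE 0.27, adjusted p = 0.212) with glucose.

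Among the chromosome arms with more than 1 of the genes, the median response over both sugars ranged from 0.18 on 2L (18 genes) to 0.26 on 3L (14 genes), and the 14 genes on the X were at 0.23. RpS3A, the only gene on chromosome 4, was at 0.86.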
